A study of Homo sapiens with 12 samples.

Results

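The 42 genes described here are NRF2, its regulators, NRF2 targets and other antioxidant genes, so not every member is a readout of NRF2. They cover the glutathione and thioredoxin systems, peroxiredoxins, peroxidases, dismutases, quinone and heme enzymes, ferritin, and enzymes that supply NADPH. They were followed across 12 expression arrays of SH-SY5Y cells, a human neuroblastoma line. Of the 42 genes, 40 had a probe set (a set of probes for 1 transcript) annotated to a single gene symbol, and the brightest such probe set over the 12 arrays stood for each gene. PRDX5 and FTH1 were not analysed here. The mean level of 38 of the 40 reached the filter level of 3.78 on the log2 signal scale, and these 38 were tested among 11774 genes out of 19775 with a single-symbol probe set. HMOX1 and OSGIN1 lay below the filter and were not part of the main tests, but a fit without the filter is given at the end.

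There were 4 groups of 3 arrays, named by their labels: oligomeric Aβ (amyloid-β peptide) at an incubation time of 6 h with its control, and fibrillar Aβ at an incubation time of 24 h with its control. Each Aβ form has its own incubation time, so form and time cannot be told apart in a comparison of the Aβ groups, and the labels leave unsaid whether the hours are those of the cells or of the peptide. Peptide length, dose and the contents of the control are not given in the sources used here, and nothing says that the 3 arrays of a group came from separate cultures, so the p-values speak only of the spread among these arrays, which may be technical. Among the noradrenergic neuroblastoma markers read here, 13 lay above the filter and TH (0.73) lay below it. Markers of other cell types above the filter were EPCAM among 5 epithelial genes, PECAM1 among 5 blood genes, S100B among 5 glial genes, and 4 of 5 mesenchymal genes.

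NRF2, encoded by NFE2L2, is a transcription factor that KEAP1 normally holds in the cytoplasm and delivers for degradation. Electrophiles and oxidants modify KEAP1, NRF2 then builds up in the nucleus, pairs with small MAF proteins and binds the antioxidant response element upstream of its target genes. Because this control acts on NRF2 protein, NFE2L2 transcript is not itself a measure of NRF2 activity, and the target transcripts are the usual readout. Aβ preparations have long been studied in neuronal cells as a source of oxidative stress.

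The sequences of 5 promoters show the element as it occurs in genes named below: TXNRD1, GSTP1 and KEAP1, which were lower at 24 h in the controls, and ME1 and GCLM, which did not pass the test there. They come from RefSeq, build GRCh38.p14, and the promoters read here (250 bases before to 50 bases after a start) cover 34 of the 42 genes. Capitals mark the element core, TGACNNNGC in either orientation. In the order listed, the windows are chr12:104215660-104215708 on the plus strand, chr11:67583726-67583774 on the plus strand, chr19:10502774-10502822 on the minus strand, chr6:83431160-83431208 on the minus strand and chr1:93909436-93909484 on the minus strand.
TXNRD1: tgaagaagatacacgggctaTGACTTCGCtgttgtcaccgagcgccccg
GSTP1: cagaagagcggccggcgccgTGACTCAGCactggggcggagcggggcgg
KEAP1: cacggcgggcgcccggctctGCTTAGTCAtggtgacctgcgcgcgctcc
ME1: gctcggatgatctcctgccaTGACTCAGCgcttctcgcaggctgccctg
GCLM: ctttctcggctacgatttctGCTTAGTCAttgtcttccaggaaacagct

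GSTP1 and ME1 carried the same 9 letters, with the first base 66 and 137 bases before the start. KEAP1 and GCLM carried a second form, read on the opposite strand, 31 and 34 bases before the start. The core was found in 9 of the 50 promoters of the 34 genes (18%), against 13.3% of the 35116 promoters of the same length that were searched. Counted by gene, it was found in 8 of 34 (23.5%), against 16.1%. The 8 genes were GCLM, GSTO1, GSTP1, KEAP1, ME1, MGST1, PGD and TXNRD1. The AP-1 site TGANTCA, which overlaps the core in GSTP1 and ME1, was found in 3 of the 34 genes (GSTP1, ME1 and OSGIN1), or 8.82%, against 9.37% of all genes searched, and in 7.71% of all promoters searched. A match describes the letters only.

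**Figure D1:**
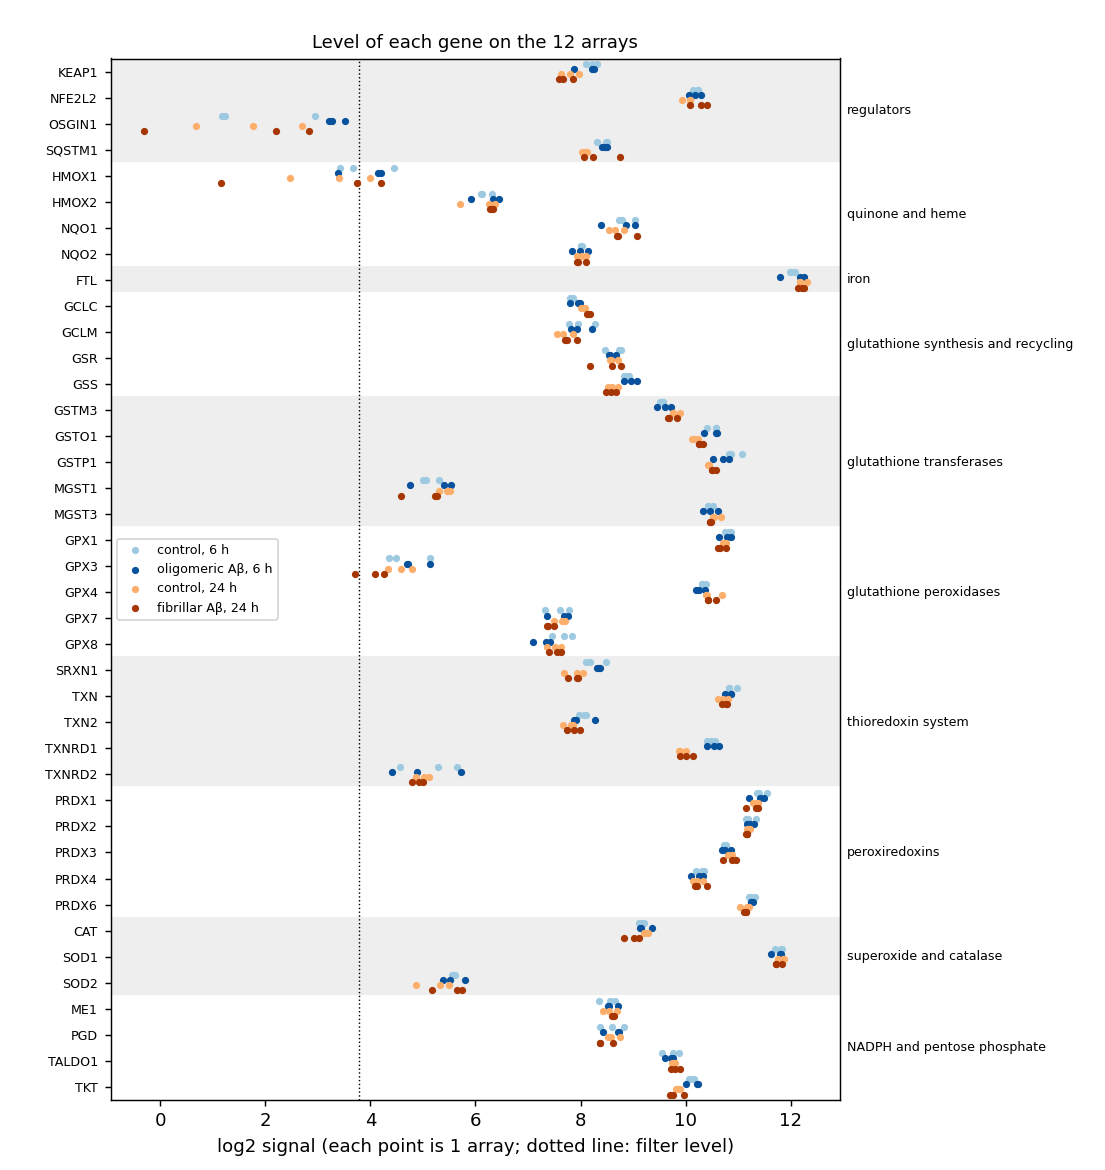
The log2 signal of each of the 40 genes on the 12 arrays, grouped by role, with 1 point per array and the filter level of 3.78 as a dotted line. For most genes the 4 groups lie close together, while the points of HMOX1 and OSGIN1 are scattered around or below the filter level; heights are not compared between genes, since probe sets differ in how brightly they bind.

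The arrays had been scaled alike before deposition (a trimmed mean signal of 100.002 on each), and the median log2 level of an array ran from 3.89 to 4.12. The difference between 3′ and 5′ probe sets of GAPDH, a measure of RNA integrity and labelling, was 0.77 to 0.83 in the 6 h controls, 0.66 to 0.80 with oligomeric Aβ, 0.47 to 0.52 in the 24 h controls and 0.49 to 0.81 with fibrillar Aβ. The signal for 18S ribosomal RNA was 9.31 to 10.3 in the 6 h controls, 10.1 to 10.7 with oligomeric Aβ, 11.4 to 11.8 in the 24 h controls and 11.8 to 11.9 with fibrillar Aβ. The mean log2 level of the 38 genes on an array lay between 9.02 and 9.10 in the 6 h controls, 8.96 and 9.12 with oligomeric Aβ, 8.94 and 8.97 in the 24 h controls, and 8.94 and 8.95 with fibrillar Aβ.

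The first question was whether the antioxidant genes changed with oligomeric Aβ. None of the 38 passed the test at 6 h (limma, Benjamini-Hochberg adjusted p = 1 for each of them), and none of the 11774 genes did either (0% called). At an unadjusted p under 0.05 there were 0 higher and 2 lower among the 38, and 149 higher and 178 lower among all genes. The median change over the 38 was -0.01 on the log2 scale, within a range of -0.38 to 0.18, and the median over all genes was -0.00463. The 3 oligomer arrays lay fully apart from the 3 controls for 2 of the 38 genes (5.26%), against 7.36% of all genes. For 34 of the 38 (89.5%) the 95% confidence interval of the change lay inside a 1.5-fold change in either direction, against 72.9% of all genes tested. The others were GPX8, GPX3, TXNRD2 and MGST1, whose intervals reached past that size.

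Among the regulators, NFE2L2 read 10.30, 10.18 and 10.07 with oligomeric Aβ and 10.24, 10.13 and 10.24 in the 6 h controls. Its groups overlapped, with a change of -0.02 and an interval of -0.20 to 0.16. KEAP1, the NRF2 inhibitor, read 7.88, 8.21 and 8.26 against 8.22, 8.32 and 8.11, and only its first oligomer array was low. SQSTM1, the autophagy receptor p62 that can sequester KEAP1, read 8.5, 8.46 and 8.40 against 8.32, 8.51 and 8.49. OSGIN1, an NRF2 target, lay below the filter and read 3.28, 3.22 and 3.53 with oligomeric Aβ against 1.18, 2.94 and 1.24. All 3 oligomer values of OSGIN1 were above all 3 control values, at signals too dim for the main tests.

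The classical NRF2 targets overlapped between the groups at 6 h. NQO1, a quinone reductase, read 8.38, 9.03 and 8.87 with oligomeric Aβ against 8.73, 9.03 and 8.78. HMOX1, the inducible heme oxygenase, lay near or below the filter at 4.21, 3.39 and 4.14 against 3.42, 4.46 and 3.67. GCLM, the modifier subunit of glutamate-cysteine ligase, read 7.82, 8.22 and 7.93 against 7.78, 8.28 and 7.96, so that the 2 sets of arrays were nearly superimposed. GCLC, the catalytic subunit of the same enzyme, read 7.99, 7.96 and 7.79 against 7.84, 7.79 and 7.86, a change of 0.08 (SE 0.08). TXNRD1, the cytosolic thioredoxin reductase, read 10.40, 10.63 and 10.53 against 10.41, 10.57 and 10.48, with an interval of -0.13 to 0.20. SRXN1, sulfiredoxin, which restores over-oxidised peroxiredoxins, read 8.32, 8.38 and 8.36 against 8.10, 8.49 and 8.18, inside the spread of its controls.

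Of the 38 tested genes, the pair whose groups did not overlap at 6 h were both lower with oligomeric Aβ. GPX8, a peroxidase of the endoplasmic reticulum, read 7.09, 7.35 and 7.41 against 7.84, 7.46 and 7.69, a change of -0.38 (SE 0.12, interval -0.64 to -0.12, limma adjusted p = 1). The second GPX8 probe set gave -0.01. GSTP1, a glutathione transferase that conjugates electrophiles, read 10.52, 10.71 and 10.82 against 10.87, 11.07 and 10.82, where the highest oligomer value and the lowest control value agree to the second decimal. Its change was -0.23 (SE 0.08, adjusted p = 1). The 5 tested peroxiredoxins changed by between -0.07 and 0.03, and the 4 NADPH-supply genes by between -0.03 and 0.08.

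With fibrillar Aβ at 24 h, none of the 38 passed the test either, and the lowest adjusted p among them was 0.181, while 140 of the 11774 genes (1.19%) passed. At an unadjusted p under 0.05, 2 of the 38 were higher and 1 was lower, against 955 and 715 of all genes. The median change was -0.01, within a range of -0.55 to 0.30, and that over all genes was -0.000527. Groups lay fully apart for 10 of the 38 (26.3%), against 19.7% of all genes: NFE2L2, GCLC, GSTP1 and GSTO1 were higher in all 3 fibril arrays, and MGST1, MGST3, PRDX2, GPX3, GPX7 and CAT were lower. The interval lay inside a 1.5-fold change for 33 of the 38 (86.8%), against 67.5% of all genes, and the exceptions were GPX3, MGST1, SOD2, HMOX2 and TXNRD2. When the arrays were instead centred on their medians, none passed with either Aβ form, and the median change moved to 0.06 with fibrillar Aβ and -0.07 with oligomeric Aβ, beside medians over all genes of 0.07 and -0.07.

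**Figure D2:**
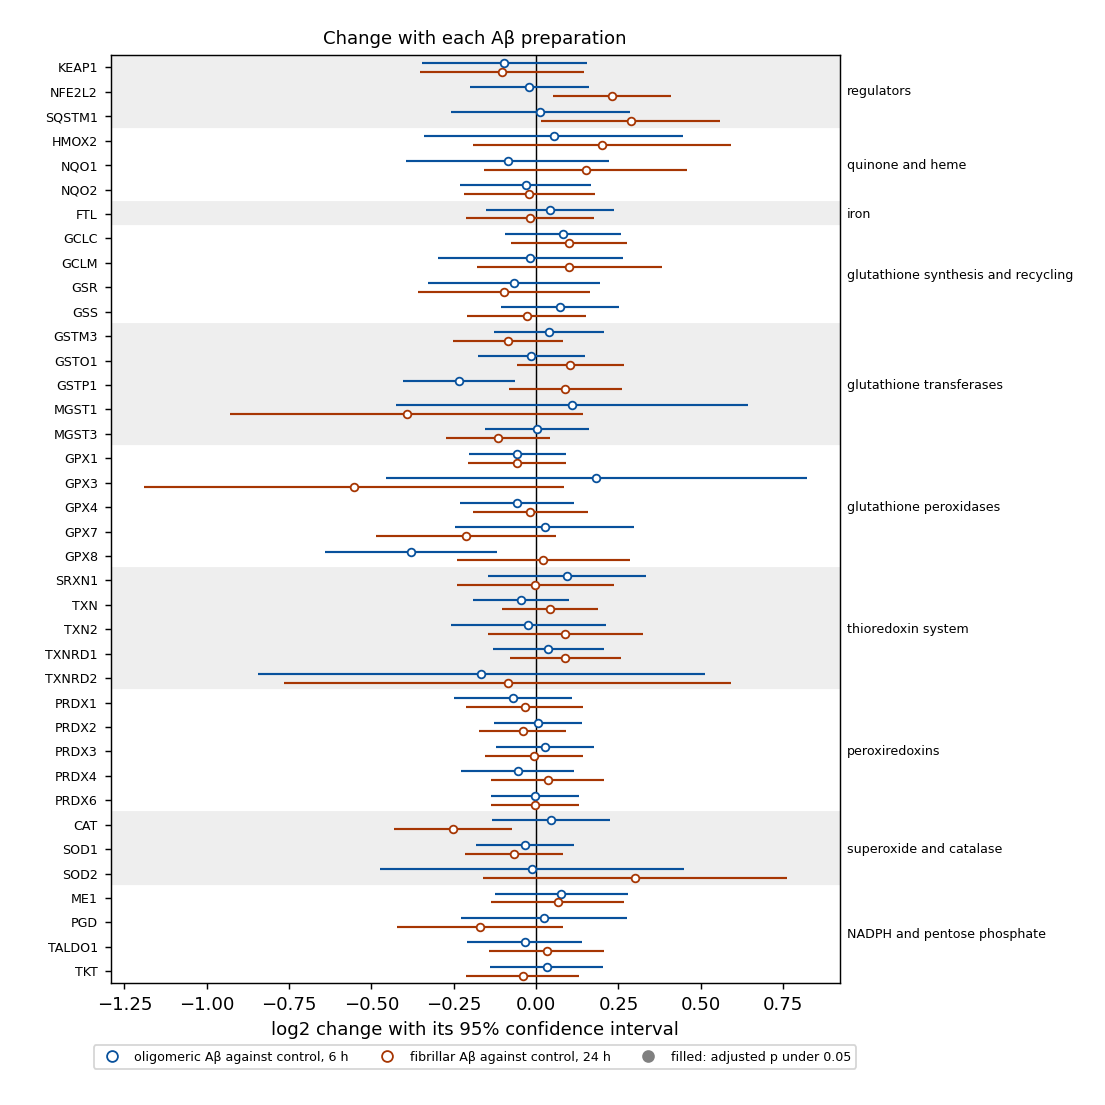
The log2 change of each of the 38 tested genes with oligomeric Aβ at 6 h and with fibrillar Aβ at 24 h, each against its own control, with the 95% confidence interval. No point is filled, since no adjusted p was under 0.05, and the widest intervals belong to GPX3, TXNRD2 and MGST1.

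The smallest p among the 38 with fibrillar Aβ belonged to CAT, catalase, which breaks down hydrogen peroxide in peroxisomes. It read 8.82, 9.11 and 9.02 with fibrillar Aβ and 9.28, 9.23 and 9.20 in the 24 h controls, a change of -0.25 (SE 0.08, interval -0.43 to -0.07, limma adjusted p = 0.181). All 3 fibril values were below all 3 controls. The other CAT probe sets gave -0.36 (mean level 6.74) and -1.11 (mean level 4.16, near the filter). Neither passed (limma adjusted p = 0.276 and 0.215 over every single-symbol probe set above the filter), and the dimmer gave -0.61 with oligomeric Aβ. SOD1, the cytosolic dismutase that makes hydrogen peroxide from superoxide, changed by -0.07 (SE 0.07). SOD2, its mitochondrial counterpart, changed by 0.30 with a wide interval of -0.16 to 0.76, and its dim probe set is the only one here annotated to SOD2 alone.

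Among the regulators, NFE2L2 read 10.40, 10.09 and 10.29 with fibrillar Aβ against 9.93, 10.08 and 10.07, a change of 0.23 (SE 0.08, interval 0.05 to 0.41, adjusted p = 0.219). Its lowest fibril value, 10.09, lay just above its highest control value, 10.08. SQSTM1 read 8.75, 8.07 and 8.25 against 8.06, 8.03 and 8.11, a change of 0.29 (SE 0.13, adjusted p = 0.321) in which the first fibril array stands alone: without it the change was 0.0894. The other SQSTM1 probe sets above the filter gave 0.61 and -0.16. KEAP1 read 7.66, 7.58 and 7.85 against 7.97, 7.63 and 7.81, with overlapping groups. OSGIN1 read 2.20, -0.31 and 2.82 against 2.70, 1.76 and 0.69, below the filter on all 6 arrays.

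The classical targets again overlapped or nearly touched. NQO1 read 8.71, 9.07 and 8.69 with fibrillar Aβ against 8.65, 8.83 and 8.54, a change of 0.15 (SE 0.15). HMOX1 read 3.74, 1.16 and 4.20 against 4.0, 2.47 and 3.41, so this strongly inducible gene lay near or below the filter in every group. GCLM read 7.71, 7.93 and 7.75 against 7.55, 7.86 and 7.67, a change of 0.10 (SE 0.13). GCLC read 8.18, 8.14 and 8.13 against 8.05, 8.08 and 8.02, above its controls on every array but by only 0.10 (SE 0.08). TXNRD1 read 10.01, 10.13 and 9.90 against 9.89, 10.004 and 9.88, a change of 0.09 (SE 0.08). SRXN1 read 7.77, 7.95 and 7.94 against 8.05, 7.94 and 7.68, a change of -0.00211 (SE 0.11).

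The glutathione peroxidases held the gene with the largest change of the 38. GPX3, the secreted peroxidase, read 3.71, 4.26 and 4.08 with fibrillar Aβ against 4.58, 4.33 and 4.80, a change of -0.55 (SE 0.30, adjusted p = 0.442) at levels around the filter. The second GPX3 probe set, about as bright, gave -0.00430. GPX8 overlapped here, at 7.63, 7.39 and 7.55 against 7.51, 7.37 and 7.64. GPX4, which reduces lipid peroxides and guards against ferroptosis, changed by -0.02 (SE 0.08), and FTL, the ferritin light chain, by -0.02 (SE 0.09). By their brightest probe sets, the 5 tested peroxiredoxins changed by between -0.04 and 0.04. A dimmer PRDX2 probe set (mean 7.84) gave -0.41 (limma adjusted p = 0.0911 over every single-symbol probe set above the filter). The remaining PRDX2 probe sets gave -0.23 and -0.03.

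**Figure D3:**
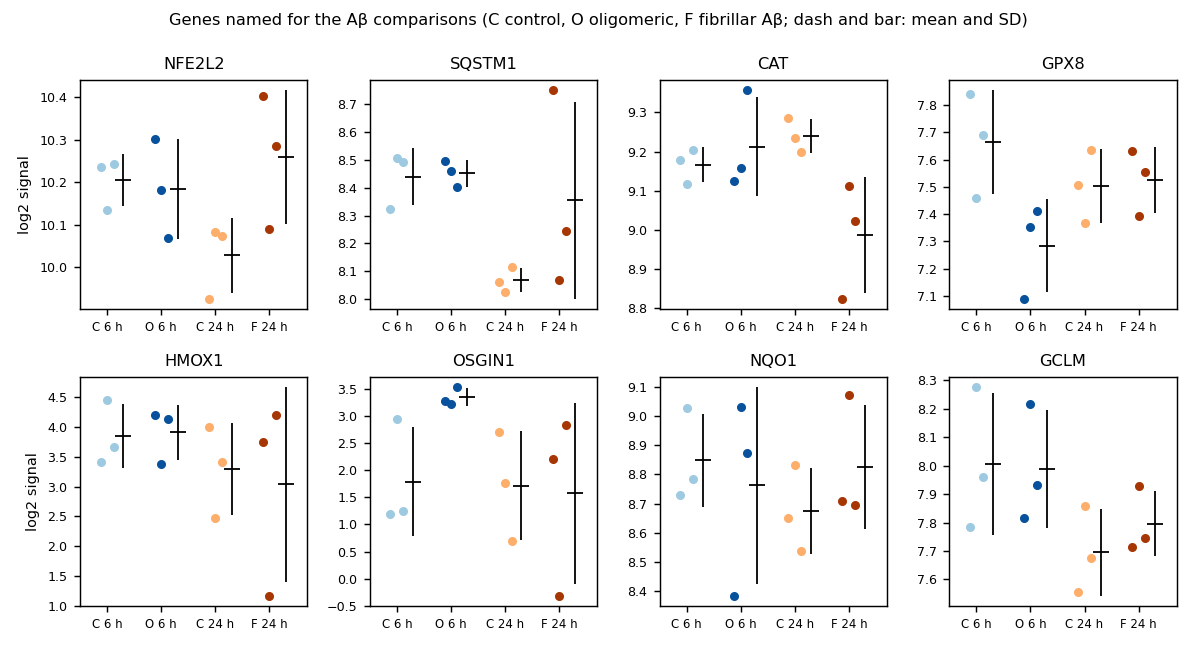
The log2 signal of 8 genes on each array, in separate panels with their own axes, with the mean and SD of each group of 3 arrays. CAT is lower in all 3 fibril arrays than in the 24 h controls, NFE2L2 is higher, and 1 fibril array carries most of the SQSTM1 difference; none of these passed the test.

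Whether the response to fibrillar Aβ differed from that to oligomeric Aβ was tested as the difference of both changes. None of the 38 passed, against 5 of the 11774 genes (0.0425%), and the lowest adjusted p among the 38 was 0.386. GSTP1 had that p, with a difference of 0.32 (SE 0.11), being lower with oligomeric and slightly higher with fibrillar Aβ. CAT differed by -0.30 (SE 0.12, limma adjusted p = 0.471) and GPX8 by 0.40 (SE 0.18, adjusted p = 0.534). The interval of the difference lay inside a 1.5-fold change for 29 of the 38 (76.3%), against 50.4% of all genes.

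In the controls 6 of the 38 were lower at 24 h than at 6 h, TXNRD1, GSTP1, GSTO1, KEAP1, SRXN1 and TKT, and 1 was higher, GSTM3. Among all genes 7.92% were called lower and 3.76% higher. The median change was -0.09 over the 38 and -0.02 over all genes. A negative change was seen in 24 of the 38, against 6189 of the 11774 genes. Groups lay fully apart for 17 of the 38 (44.7%), against 32.6% of all genes. With arrays centred on their medians, which moved the median over all genes to -0.15, 12 of the 38 were called lower and 0 higher, while 16.2% of all genes were called. Of all calls in the main fit 67.8% were lower, and 92.7% with centring.

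**Figure D4:**
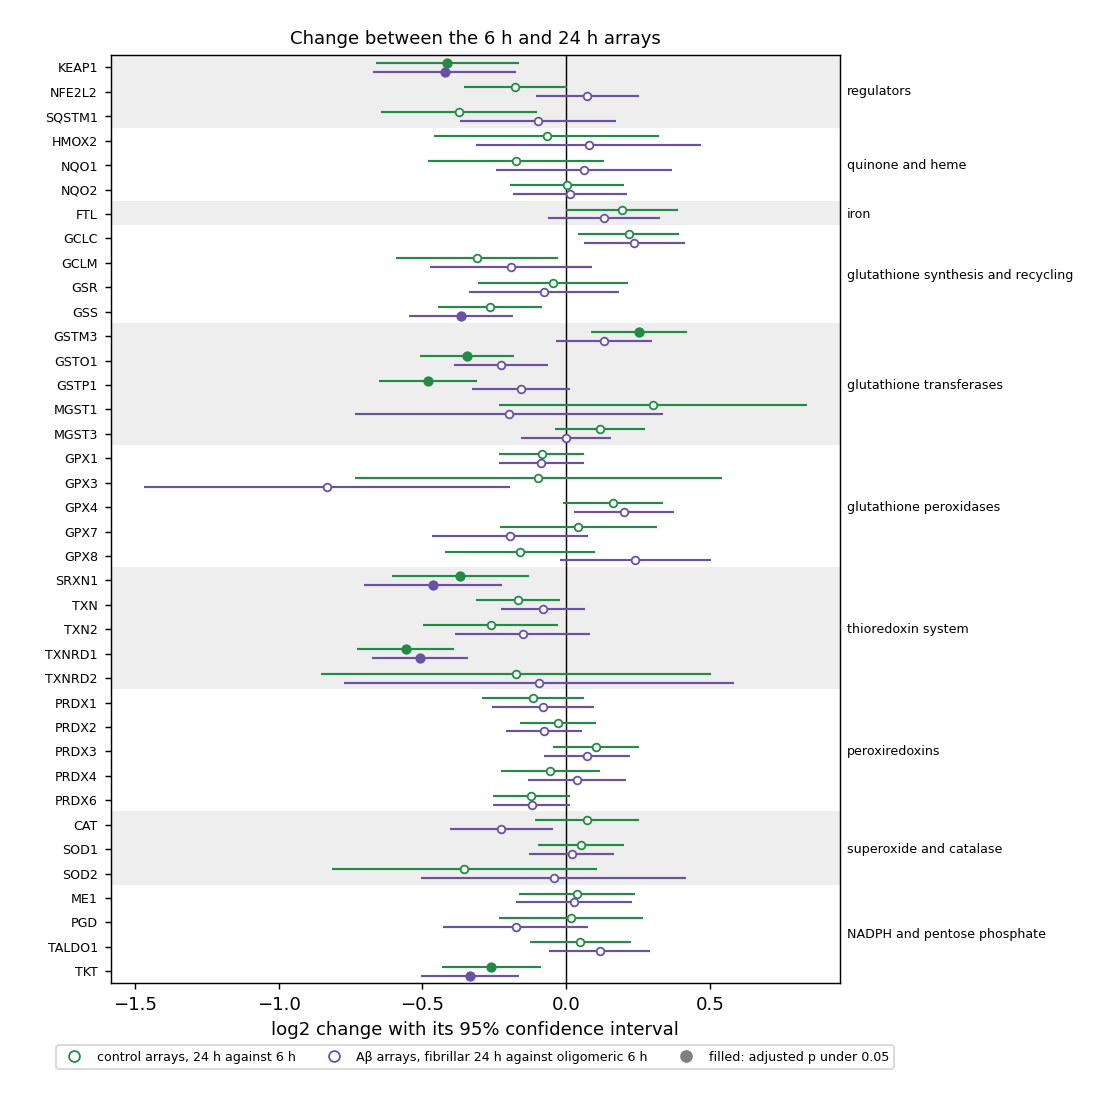
The log2 change of the 38 tested genes from 6 h to 24 h in the control arrays and, separately, from the oligomeric Aβ arrays at 6 h to the fibrillar Aβ arrays at 24 h, with 95% confidence intervals; filled points have an adjusted p under 0.05. KEAP1, SRXN1, TXNRD1 and TKT are filled in both, all to the left of 0.

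TXNRD1 fell most. It read 9.89, 10.004 and 9.88 in the 24 h controls against 10.41, 10.57 and 10.48 at 6 h, so that it fell by 32.1% (log2 change -0.56, SE 0.08, limma adjusted p = 0.000364). Every 24 h value was below every 6 h value, and the call was kept in all 12 fits that left out 1 array. SRXN1, another enzyme of the thioredoxin system, read 8.05, 7.94 and 7.68 against 8.10, 8.49 and 8.18, a change of -0.37 (SE 0.11, adjusted p = 0.045). Its highest 24 h value lay just under its lowest 6 h value. The thioredoxins gave smaller differences that did not pass. TXN, the cytosolic thioredoxin, changed by -0.17 (limma adjusted p = 0.131), and TXN2, the mitochondrial thioredoxin, by -0.26 (adjusted p = 0.14). The second TXN2 probe set, nearly as bright, gave 0.06. By their brightest probe sets, the 5 tested peroxiredoxins changed by between -0.12 and 0.10. A dimmer PRDX2 probe set gave 0.48 (limma adjusted p = 0.0111 over every single-symbol probe set above the filter).

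Among the glutathione transferases the direction was mixed. GSTP1 read 10.45, 10.42 and 10.45 at 24 h against 10.87, 11.07 and 10.82, so that it fell by 28.3% (log2 change -0.48, SE 0.08, limma adjusted p = 0.0014). GSTO1, an omega-class transferase, read 10.12, 10.16 and 10.24 against 10.57, 10.58 and 10.40, so that it fell by 21.3% (log2 change -0.35, SE 0.08, adjusted p = 0.0083). Its second probe set gave -0.23 and did not pass (limma adjusted p = 0.112 over every single-symbol probe set above the filter). Neither GSTP1 nor GSTO1, by its brightest probe set, lost its call in any of the 12 fits with a single array removed. GSTM3, a mu-class transferase, read 9.75, 9.90 and 9.76 against 9.58, 9.56 and 9.51, a rise of 19.2% (log2 change 0.25, SE 0.08, adjusted p = 0.0468). With centring its change was 0.12 and no longer called, and MGST3 and MGST1 were not called.

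Of the regulators, KEAP1 read 7.97, 7.63 and 7.81 at 24 h against 8.22, 8.32 and 8.11, so that it fell by 24.9% (log2 change -0.41, SE 0.12, limma adjusted p = 0.0315). SQSTM1 was lower on every 24 h control array, at 8.06, 8.03 and 8.11 against 8.32, 8.51 and 8.49, without passing (log2 change -0.37, adjusted p = 0.0719). The other SQSTM1 probe sets above the filter gave 0.11 and -0.19. NFE2L2 had a change of -0.18 (SE 0.08, adjusted p = 0.197), with groups apart. TKT, transketolase of the pentose phosphate pathway, read 9.86, 9.82 and 9.90 against 10.06, 10.17 and 10.13, a change of -0.26 (SE 0.08, adjusted p = 0.0473). The other NADPH-supply genes, PGD, TALDO1 and ME1, changed by between 0.02 and 0.05 by their brightest probe sets, and the second ME1 probe set gave -0.18. In glutathione synthesis, GSS, glutathione synthetase, changed by -0.26 (adjusted p = 0.0545), GCLM by -0.31 (adjusted p = 0.146) and GCLC by 0.22 (adjusted p = 0.104), so the modifier and the catalytic subunit pointed in opposite directions and neither passed. With the replicate number as a block, GSS and GCLM passed (adjusted p = 0.0321 and 0.0265) and TKT did not (0.054).

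The calls of KEAP1, SRXN1, TKT and GSTM3 changed when single arrays were left out; arrays are named by their replicate number. KEAP1 was not called without 6 h control 1 or 2 (adjusted p = 0.0777 and 0.124) or 24 h control 2 or 3 (0.119 and 0.0841). SRXN1 was not called without 6 h control 2 or 3 (adjusted p = 0.211 and 0.0607) or 24 h control 2 or 3 (0.0698 and 0.201). TKT and GSTM3 lost the call without any 1 of the 6 control arrays, with adjusted p between 0.0674 and 0.15 for TKT and between 0.0799 and 0.156 for GSTM3. Leaving out an Aβ array, which enters only through the shared spread, moved SRXN1, TKT or GSTM3 to an adjusted p of at most 0.0565 in some fits (oligomer arrays 2 and 3, and each of the fibril arrays). Between 3 and 5 of the 38 were called when 1 control was left out: 3 without 6 h control 2, 24 h control 2 or 24 h control 3, 4 without 6 h control 1 or 3, and 5 without 24 h control 1. Over all genes the share called in these fits was 6.11% to 9.39%, against 11.7% with all arrays.

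Other measures moved with the incubation time. The GAPDH and 18S values given above did not overlap between the control groups, and the ACTB difference between 3′ and 5′ was 2.82 to 3.25 at 6 h and 2.34 to 2.65 at 24 h. With these 3′ to 5′ measures as a covariate, chosen after seeing the data, 3 of the 38 were called, GSTP1, SRXN1 and TXNRD1, and over all genes the share called went from 11.7% to 3.97%. The summed level of the 5 mesenchymal markers was 12.2 to 12.5 in the 6 h controls and 12.6 to 12.7 in the 24 h controls, and 12.3 to 12.6 and 12.6 to 12.7 in the oligomer and fibril arrays. Of the members, TWIST1 had a mean of 11.58 in the 6 h and 12.03 in the 24 h controls, while COL3A1 had 10.87 and 10.88 and COL1A2 went from 5.13 to 4.34. The summed level of the 5 epithelial markers was 4.69 to 4.85 at 6 h and 5.16 to 5.53 at 24 h in the controls, with EPCAM (mean 4.53) the only one above the filter. The part of these measures in the result was not tested. The labels give no culture day or scan date, so time and any batch that goes with it cannot be told apart, and in bulk RNA fewer cells of a type and less RNA per cell cannot be told apart either.

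**Figure D5:**
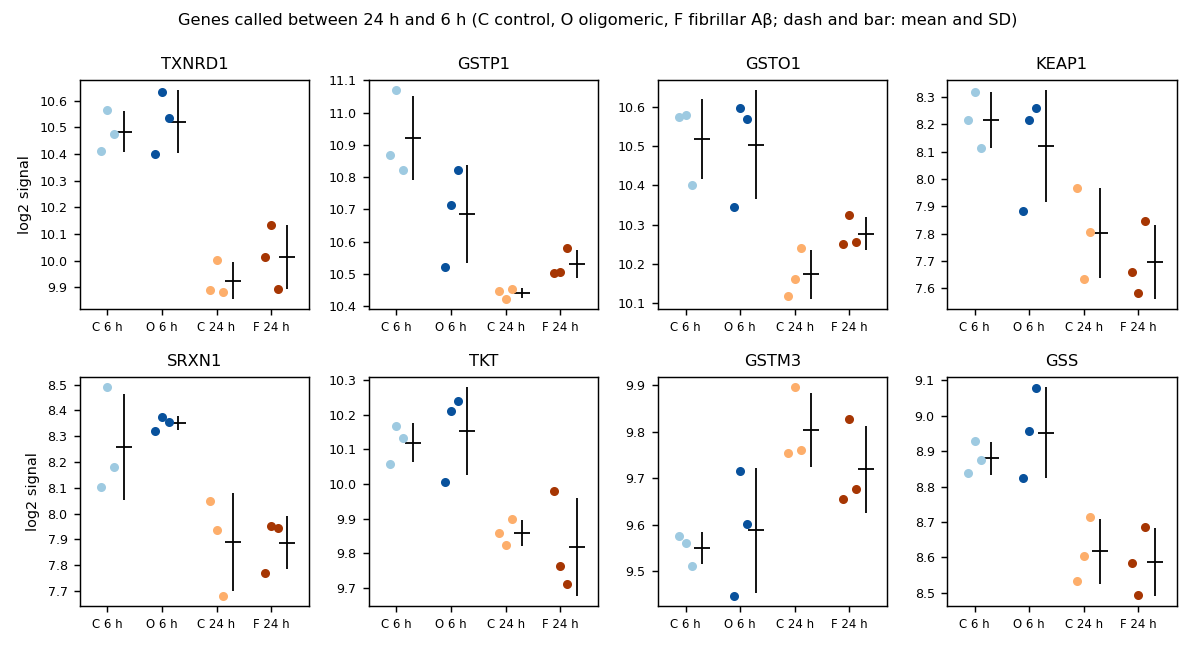
The log2 signal on each array of the 7 genes called between the 24 h and 6 h controls and of GSS, called between the Aβ groups, with the mean and SD of each group of 3 arrays and separate axes. TXNRD1 lies between 10.40 and 10.63 in both 6 h groups and between 9.88 and 10.13 in both 24 h groups; GSTM3 runs the other way.

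The Aβ arrays gave a second set of samples for the same times, with no array in common with the controls, though here the Aβ form changes with the time. This comparison was added after the values were seen. Between fibrillar Aβ at 24 h and oligomeric Aβ at 6 h, 5 of the 38 were lower (TXNRD1, GSS, TKT, SRXN1 and KEAP1) and 0 higher, against 8.61% and 6.51% of all genes. Groups lay fully apart for 12 of the 38 (31.6%), against 31.2% of all genes. All 7 genes called in the controls had the same sign, as had 1273 of 1375 genes (92.6%) on the whole array. Of the 7, 4 (57.1%) were called, beside 712 of the 1375 (51.8%). The 3′ to 5′ difference of GAPDH and of ACTB overlapped between these groups (ACTB 2.61 to 2.88 with oligomeric and 2.48 to 3.06 with fibrillar Aβ), while the 18S signal did not overlap.

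TXNRD1 again showed the clearest fall in this set, by 0.51 on the log2 scale (SE 0.08, limma adjusted p = 0.000799), and every fibril value lay below every oligomer value. GSS read 8.58, 8.49 and 8.68 with fibrillar Aβ against 8.82, 8.96 and 9.08, a change of -0.37 (SE 0.09, adjusted p = 0.00905). TKT read 9.98, 9.76 and 9.71 against 10.01, 10.21 and 10.24, a change of -0.33 (SE 0.08, adjusted p = 0.0116). SRXN1 changed by -0.46 (SE 0.11, adjusted p = 0.0118) and KEAP1 by -0.42 (SE 0.12, adjusted p = 0.0239). GSTP1 read 10.50, 10.51 and 10.58 against 10.52, 10.71 and 10.82, so that it changed by only -0.16 (adjusted p = 0.21), and GSTO1 changed by -0.23 (adjusted p = 0.0565; 0.049 with the replicate block). KEAP1 was not called without oligomer array 2 or 3 (adjusted p = 0.095 and 0.0989) or fibril array 1 or 2 (0.0667 and 0.0741), and TKT not without oligomer array 2 or 3 (0.0525 and 0.0521) or fibril array 3 (0.0635). Without oligomer array 2 or 3, 3 of the 38 were called, and over all genes 8.85% and 9.7%, against 15.1% with all arrays.

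The promoters of the genes lower at 24 h in the controls were compared with those of the rest as a description. The element core was found in 4 of the 6 (TXNRD1, GSTP1, GSTO1 and KEAP1, but not SRXN1 or TKT) and in 4 of the 25 genes with a promoter entry that were not called (16%). Of all genes with a promoter entry 16.1% held it. With 6 genes this share is set by very few promoters.

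Beyond the 42 genes, 70 other genes of the same pathways were examined, of which 56 were tested. None was called with oligomeric Aβ, where ABCC4, a drug and conjugate exporter, had the smallest p with a change of 0.27 (SE 0.14, limma adjusted p = 1), followed by MSRB2, a methionine sulfoxide reductase, with -0.15 (SE 0.08, adjusted p = 1). With fibrillar Aβ 1 of 56 was higher and 0 lower, beside 1.19% of all genes called in either direction. MAFF, a small MAF protein that pairs with NRF2 and with its competitor BACH1, read 8.91, 8.31 and 8.58 against 8.0, 7.97 and 7.86, a change of 0.66 (SE 0.12, adjusted p = 0.0139). It was not called without fibril array 3 or 24 h control 1 or 3 (adjusted p = 0.0672, 0.0607 and 0.0753), nor with the mean of its probe sets (0.209) or a constant prior variance (0.111). BACH1 itself read 8.74, 8.66 and 8.86 against 8.40, 8.15 and 8.42, a change of 0.43 (SE 0.11) that did not pass (adjusted p = 0.0602). SLC7A11, the cystine transporter subunit that feeds glutathione synthesis, had a change of 0.83 (SE 0.20) that did not pass either (adjusted p = 0.0622). For the difference between both responses none of the 56 was called, MAFF having 0.72 (adjusted p = 0.147) and SLC7A11 1.06 (adjusted p = 0.24).

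Between the control times 3 of the 56 were higher at 24 h and 4 lower, beside 3.76% and 7.92% of all genes. IDH2, the mitochondrial NADPH-producing isocitrate dehydrogenase, changed by -0.73 (limma adjusted p = 0.000251), and GLRX2, mitochondrial glutaredoxin, by -0.41 (adjusted p = 0.00235). ABCC3, a conjugate exporter, changed by -0.70 (adjusted p = 0.00802), and SLC3A2, the partner chain of SLC7A11, by -0.98 (adjusted p = 0.0131). AKR1C3, an aldo-keto reductase that NRF2 is known to drive, changed by 0.81 (adjusted p = 0.0256), and SLC40A1, the iron exporter ferroportin, by 0.43 (adjusted p = 0.0386). SLC3A2 was not called without 24 h control 1 (adjusted p = 0.0607), AKR1C3 not without 6 h control 2 or 3 (0.122 and 0.0622) or 24 h control 1 or 3 (0.0824 and 0.102), and SLC40A1 not without any 1 of the 6 h controls or 24 h control 2 or 3 (0.0588 to 0.189). Between the Aβ groups of the 2 times 11 of the 56 were higher and 4 lower, beside 6.51% and 8.61% of all genes. IDH2 (-1.05, limma adjusted p = 3.75e-05) and GLRX2 (-0.31, adjusted p = 0.00991) were again lower. Among the genes called higher, the smallest p belonged to MAFF (0.70, adjusted p = 0.00113), SESN3 (0.61, 0.00256), MSRB3 (0.36, 0.00354) and BACH1 (0.45, 0.00981). Of the genes named for the controls, ABCC3 (-0.37, adjusted p = 0.123), SLC3A2 (-0.69, 0.0565), AKR1C3 (0.48, 0.157) and SLC40A1 (0.15, 0.47) kept their sign but were not called.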

How the data were processed

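The authors deposited log2 signals per probe set. MAS5 is the method named in the submitters' processing notes (version not given in the sources used here), and no further normalization was applied. Of the probe sets, 41091 carried a single gene symbol in the platform annotation. A gene was tested where the mean of its brightest probe set over the 12 arrays reached the median over all non-control probe sets. A group-means model on all 12 arrays was fitted with limma 3.58.1 in R 4.3.3, with a prior variance that followed the level and 2-sided tests, and p-values were adjusted over 11774 genes (Benjamini-Hochberg, called under 0.05). The number of arrays limits the precision: the median SE of a change was 0.09 for the 38 genes and 0.13 for all genes. The members and lists were chosen with earlier results of these data known. Values on every array are given for called genes, for the 3 with the smallest p where fewer than 3 were called, and for NFE2L2, KEAP1, HMOX1, NQO1, GCLM, TXNRD1, SRXN1 and OSGIN1. Of the other pathway genes, those called (up to 6 by p) are named, else the 2 with the smallest p. BACH1 and SLC7A11 with fibrillar Aβ were added after their values were seen. So were all of the other pathway genes named between the Aβ groups of the 2 times. Alternatives covered the normalization, filter, probe set, prior, array weights, samples fitted, replicate block, an added signal of 16 and each array left out.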

Additional observations from a re-analysis of the deposited data

How the results depend on the processing

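None of the 38 genes was called with oligomeric Aβ, with fibrillar Aβ or for the difference under any alternative run. Median centring moved the median change over the genes to -0.0722 with oligomeric Aβ, 0.0617 with fibrillar Aβ, 0.144 for the difference and -0.221 between the control times; leaving out 1 array moved that of the difference to between -0.0491 and 0.0264. Between the control times, 7 genes were called in the reported fit, 12 with median centring, 4 with no filter, 3 with a constant prior variance, 3 with the 3′ to 5′ covariate chosen after seeing the data (11.7%, 16.2%, 5.55%, 8.03% and 3.97% of all genes, in that order), and 3 to 8 with 1 array left out. Between the Aβ groups of the 2 times, 5 were called, and 3 to 6 with 1 array left out (3 without oligomer array 2 or 3). Over all genes, leaving out 1 array gave 6.11% to 12.5% called between the control times and 8.43% to 16.1% between the Aβ groups. The medians with oligomeric Aβ, with fibrillar Aβ and for the difference lie near 0 and changed sign under some alternatives; no gene rerun under the alternatives changed sign. Same-numbered arrays of any 2 groups deviated together only weakly (correlations from -0.0274 to 0.0895), so arrays were not paired by number. Even so, each control array correlated best with its own number at the other time (0.0442 to 0.0776). Each fibril array likewise correlated best with its own number in the 24 h controls (0.0285 to 0.0747) and in the 6 h controls (0.0191 to 0.0501). With the replicate block 8 of the genes were called between the control times (TKT lost its call, GSS and GCLM gained one), 6 between the Aβ groups (GSTO1 gained one) and 0 with either Aβ form. Over all genes the share called rose as well. It was 13.3% between the control times (11.7% in the main fit), 17% between the Aβ groups (15.1%) and 1.56% with fibrillar Aβ (1.19%). Array noise sets the limit for dim genes: GPX3, TXNRD2, MGST1 and SOD2 had standard errors of 0.22 to 0.32.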

Other observations

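In a fit without the filter, HMOX1 and OSGIN1 could be set against the other genes at their dim levels. OSGIN1 changed by 1.55 with oligomeric Aβ (SE 0.96, limma adjusted p = 1) and by -0.14 with fibrillar Aβ (adjusted p = 0.981). HMOX1 changed by 0.06 with oligomeric Aβ (adjusted p = 1), by -0.26 with fibrillar Aβ (adjusted p = 0.954) and by -0.56 between the 24 h and 6 h controls (adjusted p = 0.768). Probe sets of 1 gene did not always move alike between the control times. The second GSTM3 probe set gave 0.65 beside 0.25, and PRDX2 had a probe set at 0.48 beside -0.03 for the brightest. For TKT the second probe set (mean 8.28) gave -0.61 beside -0.26. Over every single-symbol probe set above the filter, it passed and the brightest did not (limma adjusted p = 0.00315 and 0.0572). The brightest SRXN1 and GSTM3 probe sets did not pass there either (adjusted p = 0.0523 and 0.0573). Between the Aβ groups this second TKT probe set gave -0.59 (adjusted p = 0.00364, and 0.0158 for the brightest). The 3 GCLM probe sets lay between -0.33 and -0.22 between the control times, and the 3 NQO1 probe sets between -0.29 and -0.14.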
